A study of Mus musculus with 2 samples.

Results

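Lysosome genes were examined as a set of 41 genes, chosen by symbol from the 32285 genes of the deposited tables, and all 41 symbols were found there. The set holds 8 cysteine proteases, 3 other proteases, 13 glycosidases and glycan sulfatases, 7 enzymes and carrier proteins of lipids and thioesters, 8 membrane proteins and channels, and 2 regulators. Their UMIs (unique molecular identifiers, each marking 1 captured mRNA molecule) were followed in liver sinusoidal endothelial cells (LSECs) and in macrophages. The question was how lysosomal gene expression differed between control and Maf LSEC-KO livers (the knockout), and within the latter between LSECs with and without Maf transcripts.

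Liver endothelial cells were purified with beads against CD146 after enzymatic digestion of the liver and sequenced by droplet-based 3′ scRNA-seq. The Maf LSEC-KO library came from Clec4g-iCre tg/wt mice with Maf fl/fl alleles, in which a transgene with the Clec4g promoter drives Cre mainly in LSECs. The control library came from littermates with Clec4g-iCre wt/wt and Maf fl/fl or Maf fl/wt alleles, which the labels name WT, so both groups carry floxed Maf and only the knockout carries Cre. Each library was 1 pool of 3 mice on standard diet, and the age of the pooled mice is not given in the sources used here. With 1 library per condition there was no replicate and no test, and every interval below is an exact 95% interval of counting error only.

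Lysosomes are acidic organelles in which proteases, glycosidases, sulfatases and lipases break down material that has been taken up or enclosed by autophagy. Their membrane is lined by heavily glycosylated proteins such as LAMP1 and LAMP2, and a proton pump, the V-ATPase, keeps the lumen acidic. LSECs and Kupffer cells, the resident macrophages of the liver, are the main scavengers of macromolecules and particles from blood and deliver this cargo to lysosomes.

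There were 5664 barcodes with 47681895 UMIs in control and 7091 with 89872764 UMIs in the knockout, and 10 barcode sequences occurred in both. After removal of doublets, 4101 control and 3251 Maf LSEC-KO LSECs remained, with medians of 8395 and 13870 UMIs, and 222 and 389 macrophage-like cells, with medians of 5253 and 4554 UMIs. The level of Maf in LSECs was 3466 CPM in control and 125 CPM in the knockout, where CPM are UMIs scaled to the total set out below. In macrophage-like cells it was 1526 and 1512 CPM. The position of the deleted part of Maf relative to the counted 3′ tag was not established here. All 10 genes of an LSEC marker list were detected in LSECs of both libraries, and the list summed to 19033 CPM in control against 6031 CPM in the knockout.

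Promoter sequences of the genes that were lowest in Maf LSEC-KO LSECs relative to control are shown first, with 2 short motifs that were searched in them. CACGTG is the core of the element bound by TFEB, a regulator of lysosome genes that is a member of the set, and TGCTGA is the half-site of the element bound by Maf proteins. Both were searched on both strands from 250 bases before to 50 bases after the RefSeq start sites (build GRCm38.p6, mm10), and 37 of the 41 genes had such a window. CACGTG lay in the windows of 13 of these 37 genes (35.1%), against 8.09% of all 27025 genes with a window. The longer TCACGTGA, which contains CACGTG, lay in 4 of 37 (10.8%, Ctsa, Ctsd, Gla and Mcoln1), against 1.12% of all genes. TGCTGA lay in 10 of 37 (27.0%), against 21.7% of all genes. Of the 8 genes that were at least 2-fold lower in Maf LSEC-KO LSECs, Lgmn, Ctsl, Ctsd and Sgsh held CACGTG, and Ctsl, Lamp2, Scarb2 and Tpp1 held TGCTGA or its reverse complement TCAGCA. Neither was found in the window of Ids. Both motifs also lay in windows of members that were not 2-fold lower. For CACGTG these were Arsa, Ctsa, Ctsf, Gaa, Gla, Glb1, Lamp1, Mcoln1 and Naglu. For TGCTGA they were Ctss, Ctsz, Gla, Naglu, Neu1 and Smpd1, of which Ctss was at least 2-fold higher. These matches describe the letters of the windows and are not evidence of binding. The stretches are read 5′ to 3′ on the minus strand, on which all of these genes lie, with the motif in capitals. Lgmn has 2 RefSeq windows, and its match lies in only 1 of them, at a downstream start. Relative to the genes as GENCODE annotates them, the stretch of Lgmn begins 647 bases inside the gene, and those of Scarb2, Ctsl and Ctsd begin 984, 120 and 87 bases inside. In the Ctsl stretch the last 2 bases of CACGTG are also the first 2 of a TGCTGA.
Lgmn, chr12:102439111-102439166, motif 49 bases before the downstream start: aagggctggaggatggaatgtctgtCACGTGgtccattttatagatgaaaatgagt
Ctsl, chr13:64370726-64370770, motif 236 bases before the start: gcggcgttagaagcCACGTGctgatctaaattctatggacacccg
Ctsd, chr7:142387894-142387951, motif 99 bases before the start: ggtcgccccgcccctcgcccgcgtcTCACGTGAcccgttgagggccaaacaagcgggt
Sgsh, chr11:119355509-119355564, motif 29 bases before the start: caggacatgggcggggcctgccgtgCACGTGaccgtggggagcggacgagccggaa
Lamp2, chrX:38456461-38456516, motif 31 bases before the start: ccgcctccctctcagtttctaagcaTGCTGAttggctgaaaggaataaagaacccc
Scarb2, chr5:92505794-92505849, motif 167 bases before the start: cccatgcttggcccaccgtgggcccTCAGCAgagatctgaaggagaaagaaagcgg
Tpp1, chr7:105752255-105752310, motif 50 bases before the start: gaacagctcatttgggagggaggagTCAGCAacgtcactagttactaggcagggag

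In LSECs, lysosome genes together took a smaller share of the transcriptome in Maf LSEC-KO than in control. Their UMIs made up 0.978% (0.975 to 0.982) of the UMIs of control LSECs and 0.598% (0.596 to 0.600) of those of Maf LSEC-KO LSECs, a 1.64-fold lower share (log2 ratio −0.71, −0.72 to −0.70). The total, here and for all CPM values (UMIs per 1e6 UMIs of the total), excludes mitochondrial genes and genes of ribosomal proteins. Single control LSECs had a median of 0.919% and single knockout LSECs one of 0.582%. The middle 50% of control cells lay between 0.722% and 1.11%, that of knockout cells between 0.471% and 0.694%, so that these ranges did not overlap. The 3695 control and 3064 knockout LSECs with at least 2700 UMIs were also thinned to this number, with 406 and 187 shallower ones left out, and their shares were 0.946% and 0.607%. Among the clusters counted as LSECs, 5 had more erythroid or stellate markers than endothelial ones among their 10 leading genes. Of these, 3 were of control (1478 cells) and 2 of the knockout (1039 cells). In 1 of them, a control cluster of 578 LSECs, most of the leading genes were hepatocyte genes, such as Mup20, Apoa1 and Fgg. Without these 5 clusters the shares were 1.015% and 0.576% (log2 ratio −0.82). Of the 40 members that reached 5 CPM, 6 were then at least 2-fold lower and 3 higher, against 4.20% and 11.2% of all genes.

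**Figure D1:**
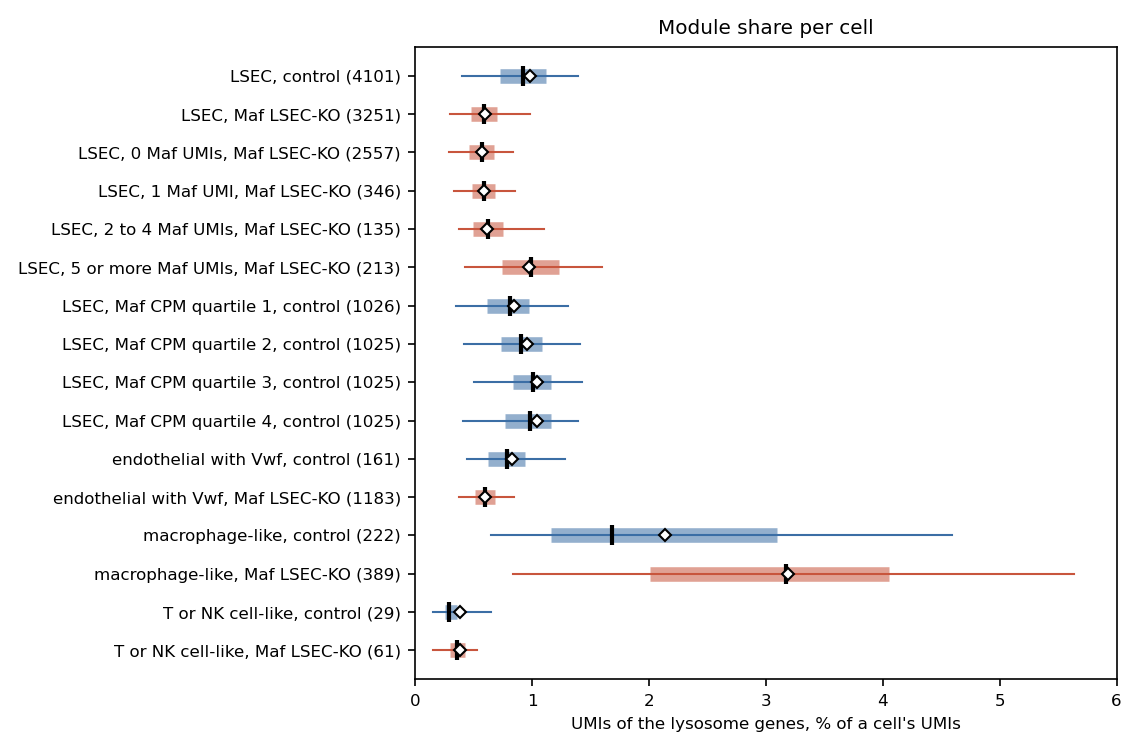
Share of a cell's UMIs (%, x axis) that came from the 41 lysosome genes, by cell group (y axis, number of cells in parentheses), with control in blue and Maf LSEC-KO in red. Black ticks mark the median, boxes the middle 50% and lines the 5th to 95th percentile of cells, and white diamonds the share of summed UMIs. Maf LSEC-KO LSECs lie below control LSECs except in the class with 5 or more Maf UMIs, and macrophage-like cells lie above LSECs.

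Of the 41 genes, 40 reached a mean of 5 CPM over the LSECs of both libraries, and 28 of these were lower and 12 higher in Maf LSEC-KO. Their median log2 ratio was −0.39, against 0.13 for all 10145 genes that reached this mean, of which 39.9% were lower. At least 2-fold lower were 8 of the 40 genes, against 4.45% of all genes. At least 2-fold higher were 4 of the 40 (10.0%), a share near the 10.4% of all genes. With the UMIs of all genes as the total, the median of all genes was −0.06, and 10 lysosome genes were 2-fold lower and 1 was 2-fold higher (6.29% and 7.50% of all genes).

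Cysteine proteases cut proteins with a cysteine in the active site, and they included both the lowest and several of the highest ratios. Lgmn (ENSMUSG00000021190, chr12:102394084-102439813) encodes legumain, which cuts after asparagine and matures other lysosomal proteases. Control LSECs had 508 CPM (501 to 516) of it and knockout LSECs 52.9 CPM (50.6 to 55.2), which is a log2 ratio of −3.27. At least 1 Lgmn UMI was present in 83.1% of the control cells and 34.3% of the knockout cells, or, thinned, in 63.2% and 10.3%. For comparison, 20.7% of the 29 control and 3.28% of the 61 Maf LSEC-KO T or NK cell-like cells held one, at medians of 6892 and 5857 UMIs. Ctsl, encoding cathepsin L, an endopeptidase, was among the most abundant members with 1248 CPM in control and 396 CPM in Maf LSEC-KO (log2 ratio −1.65, −1.68 to −1.63). Ctsb, encoding cathepsin B, was less different, at 980 and 634 CPM (−0.63). Ctsz, encoding an exopeptidase of the same family, had 134 and 157 CPM (0.23), and Ctsf, another cathepsin, 14.4 and 12.2 CPM (−0.24).

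The aspartic protease cathepsin D and the tripeptidyl peptidase TPP1 were also lower in Maf LSEC-KO LSECs. Ctsd had 617 CPM in control and 261 CPM in Maf LSEC-KO (log2 ratio −1.24, −1.27 to −1.21), and Tpp1 321 and 159 CPM (−1.02, −1.06 to −0.97). Ctsa, whose product protects other lysosomal enzymes from degradation, had 87.8 and 85.0 CPM, and its interval of the log2 ratio included 0 (−0.12 to 0.02).

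Of the 7 membrane proteins and channels that reached the minimum, 6 were lower in Maf LSEC-KO LSECs. Lamp2, encoding a glycoprotein that protects the membrane and serves autophagy, had the most UMIs of all members in LSECs, with 1272 CPM in control and 616 CPM in Maf LSEC-KO (log2 ratio −1.05, −1.07 to −1.02). Scarb2, which encodes the receptor that carries glucocerebrosidase to lysosomes, had 350 and 161 CPM (−1.11, −1.16 to −1.07). Lamp1 was 863 and 571 CPM (−0.59). Laptm4a, a small transmembrane protein, was 503 and 413 CPM (−0.28), Mcoln1, a calcium channel of the lysosome, 20.3 and 14.6 CPM (−0.48), and Npc1, which exports cholesterol, 34.7 and 26.3 CPM (−0.40).

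Cd63 was the membrane protein gene with the opposite direction. It encodes a tetraspanin of late endosomes, lysosomes and exosomes, at chr10:128900989-128912822. Control LSECs had 30.1 CPM (28.3 to 32.1) of Cd63 and knockout LSECs 169 CPM (165 to 173), with a log2 ratio of 2.48. At least 1 Cd63 UMI was found in 13.8% of the control cells and 62.6% of the knockout cells, or, thinned, in 5.39% and 28.1%, against 3.45% of control and 6.56% of Maf LSEC-KO T or NK cell-like cells before thinning. Cd63 was also present in endothelial cells with a Vwf UMI, which were set apart from LSECs, with 130 CPM in control and 222 CPM in Maf LSEC-KO.

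Among glycosidases and glycan sulfatases, which take sugar chains apart, 9 of 13 were lower and 4 higher, and 2 passed 2-fold. Ids, an iduronate sulfatase, had 57.3 CPM in control and 28.3 CPM in Maf LSEC-KO LSECs (log2 ratio −1.02, −1.12 to −0.91). Sgsh, a sulfamidase of heparan sulfate, had 29.1 and 14.4 CPM (−1.01, −1.16 to −0.86). The intervals of Ids, Sgsh and Tpp1 reached across the 2-fold limit. The nearest members outside it were Gaa, the acid glucosidase that degrades glycogen, with 60.0 and 33.5 CPM (−0.84), and Psap. Man2b1, an acid mannosidase, was 279 and 236 CPM (−0.24). The other ratios ran from Manba (−0.70) over Hexa (−0.39), Gla (−0.38), Glb1 (−0.30) and Neu1 (−0.25) to Naglu (0.03), Gusb (0.13), Arsb (0.22) and Fuca1 (0.27). The sign of Naglu depended on the scaling and on the cells included, and that of Gusb on the scaling.

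Genes for lipid handling were split. Psap, the precursor of the saposins that activate sphingolipid hydrolases, had 896 CPM in control and 504 CPM in Maf LSEC-KO LSECs (log2 ratio −0.83, −0.86 to −0.81). Lower ratios were also seen for Smpd1 (acid sphingomyelinase, −0.69), Ppt1 (palmitoyl-protein thioesterase, −0.65) and Asah1 (acid ceramidase, −0.25). Npc2, which hands cholesterol to NPC1, was 240 and 294 CPM (0.29), and Lipa, the acid lipase that frees cholesterol from its esters, 189 and 250 CPM (0.41). Arsa, a sulfatase of sulfatides, had a ratio of 0.19 and was lower with 1 other scaling. Both regulators were lower, Tfeb (−0.70, −0.96 to −0.45; 5.53 CPM in the knockout) and Grn, the progranulin gene, with 273 and 207 CPM (−0.40).

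**Figure D2:**
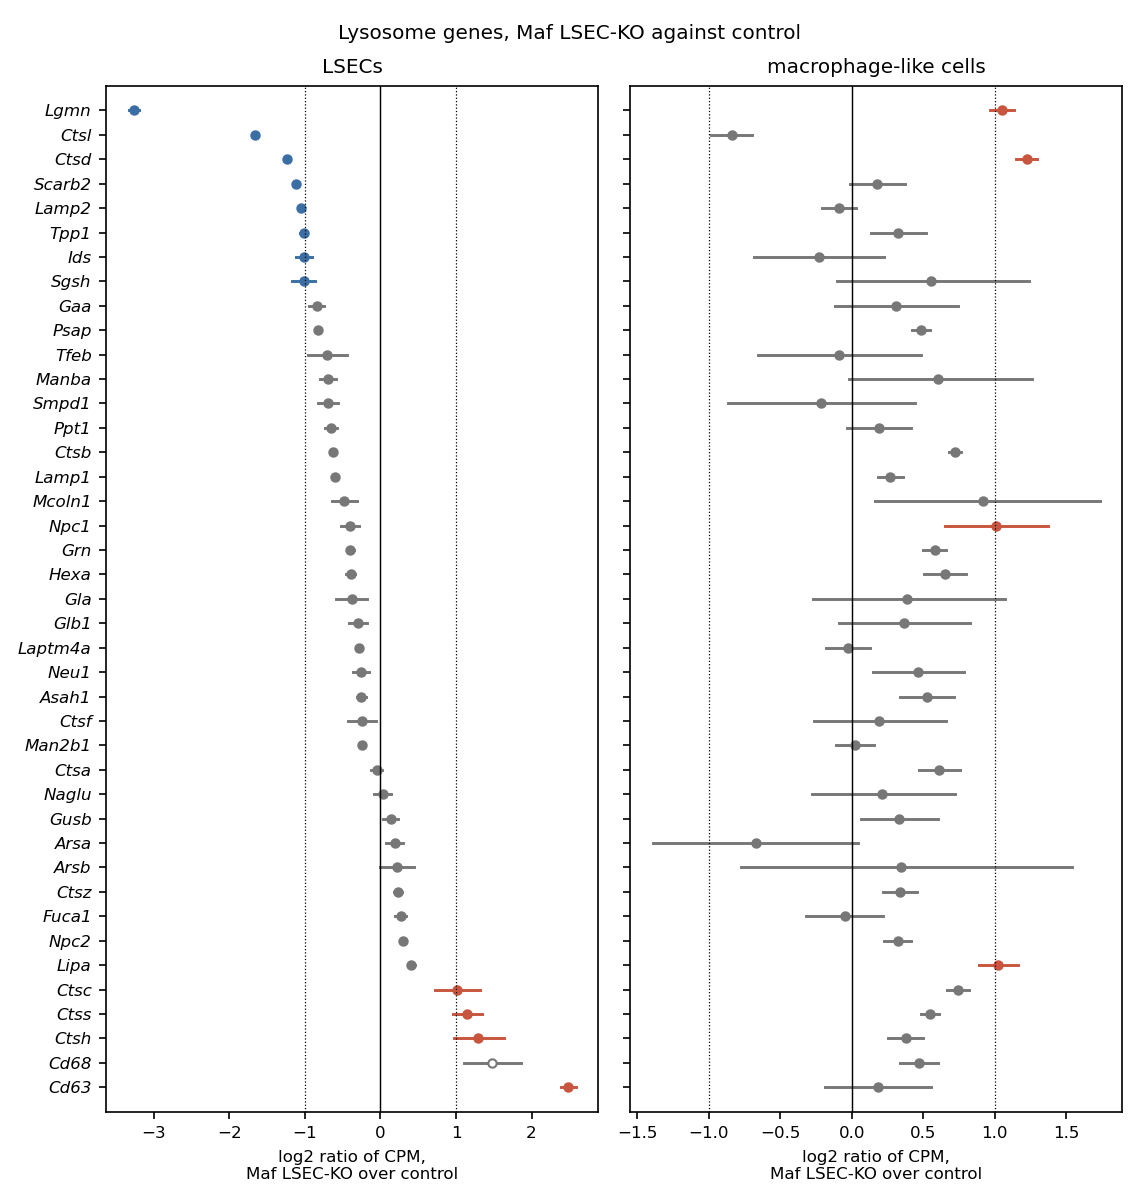
Log2 ratio of CPM, Maf LSEC-KO over control (x axes), for each of the 41 lysosome genes (y axis, ordered by the ratio in LSECs) in LSECs (left) and macrophage-like cells (right). Points are ratios, bars exact 95% counting intervals, dotted lines 2-fold, blue and red genes at least 2-fold lower or higher, and the open point a gene under the minimum of 5 CPM. Lgmn and Ctsd are past 2-fold on opposite sides in the 2 cell types.

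The 3 other members that were at least 2-fold higher in Maf LSEC-KO LSECs were Ctss, Ctsh and Ctsc, protease genes that are prominent in immune cells. Ctss had 9.25 CPM in control and 20.5 CPM in Maf LSEC-KO LSECs, Ctsh 3.16 and 7.77 CPM, and Ctsc 4.17 and 8.44 CPM. Cd68, a macrophage marker, had 2.37 and 6.62 CPM and was under the minimum. In control macrophage-like cells the same 4 genes had 2015, 525, 1286 and 442 CPM, far above their levels in LSECs. The sum of 11 macrophage markers in LSECs was 71.8 CPM in control and 126 CPM in Maf LSEC-KO, with all 11 detected in both and all 11 higher in Maf LSEC-KO. A UMI of any of them was found in 34.1% of control and 61.9% of Maf LSEC-KO LSECs. These shares are not thinned, and the Maf LSEC-KO LSECs were deeper. Relative to the macrophage-like cells of the same library, the sum in LSECs was 0.39% in control and 0.48% in Maf LSEC-KO. Per 100 UMIs of this list, Ctsc had 7.05 UMIs in control macrophage-like cells and 5.81 in control LSECs, and 8.21 and 6.72 in the knockout library. Ctss had 11.04 and 12.88 in control, and 11.21 and 16.31 in the knockout. Ctsh had 2.88 and 4.41 in control, and 2.60 and 6.18 in the knockout, and Cd68 2.42 and 3.31, and 2.33 and 5.27. Ctss, Ctsh and Cd68 were thus higher per marker UMI in LSECs than in macrophage-like cells of both libraries, and Ctsc was lower. In endothelial cells with a Vwf UMI, Ctsh had 124 CPM in control and 37.0 CPM in the knockout, the opposite direction to LSECs. In LSECs without a UMI of any of the 11 markers, Ctss had 6.99 CPM in 2701 control and 17.2 CPM in 1240 Maf LSEC-KO cells. Of the 38 members that reached the minimum there, only 2, Cd63 and Ctss, were at least 2-fold higher, against 10.1% of all genes. Ctsh and Ctsc were no longer among them. In the same cells Cd63 had 28.6 and 166 CPM and Lgmn 490 and 51.9 CPM. The part of macrophage RNA in the levels of Ctss, Ctsh, Ctsc and Cd68 was not tested.

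**Figure D3:**
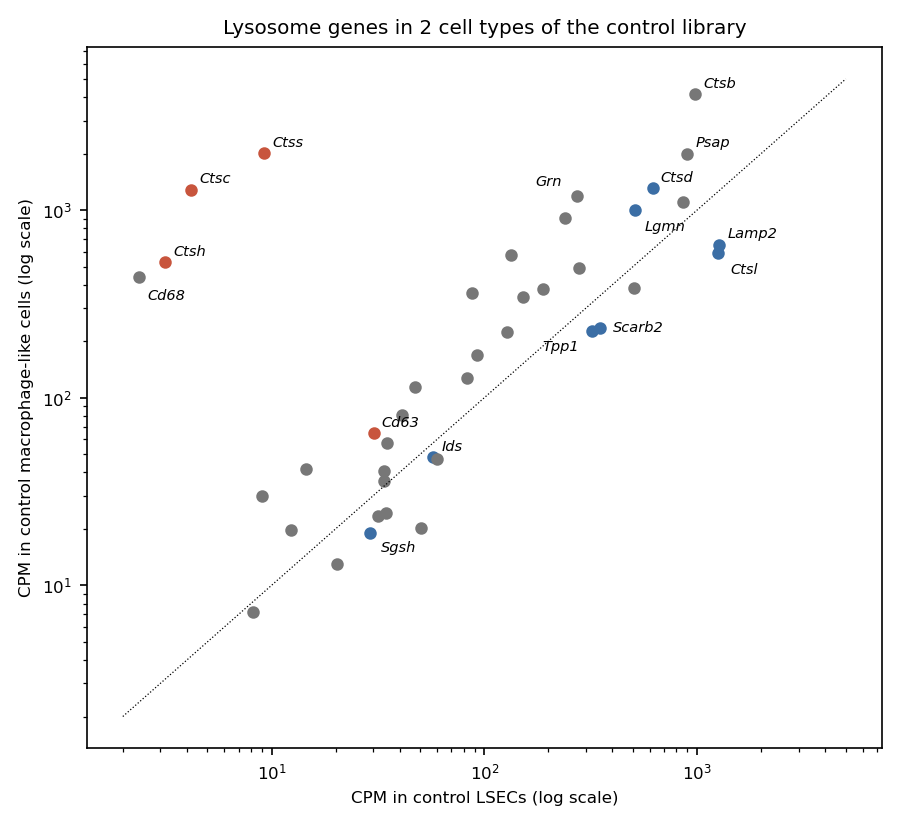
Level (CPM, log scales) of the 41 lysosome genes in control LSECs (x axis) and control macrophage-like cells (y axis), with equal levels on the dotted line. Blue genes were at least 2-fold lower and red genes at least 2-fold higher in Maf LSEC-KO than in control LSECs. Ctss, Ctsc, Ctsh and Cd68 lie far above the line, Lamp2, Ctsl, Scarb2 and Tpp1 below it.

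Within the Maf LSEC-KO library, the module share went with the number of Maf UMIs in the LSEC. It was 0.571% in 2557 LSECs with 0 Maf UMIs, 0.586% in 346 with 1, 0.611% in 135 with 2 to 4, and 0.975% (0.962 to 0.988) in 213 with 5 or more. The module share of the last class was equal to that of control LSECs within counting error (log2 ratio −0.005, −0.025 to 0.015). The members were not each at the control level, with 24 higher and 17 lower (41.5%, against 38.8% of all genes). Ctsb (1263 against 980 CPM in control), Ctsc (22.5 against 4.17 CPM), Ctsh (22.1 against 3.16 CPM) and Ctss (39.8 against 9.25 CPM) were above control. Lgmn was below it (360 against 508 CPM). LSECs with 2 or more Maf UMIs had 0.799%, a log2 ratio of 0.48 (0.47 to 0.50) over those with 0. By this comparison 5 of 41 members (Lgmn, Ctsd, Ctsc, Ctsh and Tfeb) were at least 2-fold higher, against 3.05% of all genes, and 0 were 2-fold lower, against 0.863%. With 5 or more Maf UMIs 9 of 41 were at least 2-fold higher, against 5.19% of all genes, and 0 lower, against 5.44%. Median log2 ratios of the members were 0.40 and 0.59, with −0.01 and −0.05 for all genes.

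The members with the lowest ratios to control were higher in LSECs with 5 or more Maf UMIs. Lgmn had 32.1, 38.6, 59.9 and 360 CPM in LSECs with 0, 1, 2 to 4, and 5 or more Maf UMIs. Ctsl had 365, 349, 410 and 924 CPM, and Ctsd 231, 235, 260 and 736 CPM. For Ctsl and Ctsd the first 3 classes were close together, and for all 3 genes the last class stood apart. Lamp2 (582 and 1015 CPM), Scarb2 (152 and 293 CPM), Tpp1 (148 and 307 CPM) and Tfeb (4.54 and 12.4 CPM) were likewise higher with 5 or more Maf UMIs than with 0. Of the abundant members, Npc2 (294 and 296 CPM), Ctsz (157 and 155 CPM) and Lipa (251 and 222 CPM) did not follow Maf. Cd63 had 169 CPM with 0 and 164 CPM with 5 or more Maf UMIs. Its log2 ratio over control LSECs was 2.45 (2.27 to 2.62) in the latter class.

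**Figure D4:**
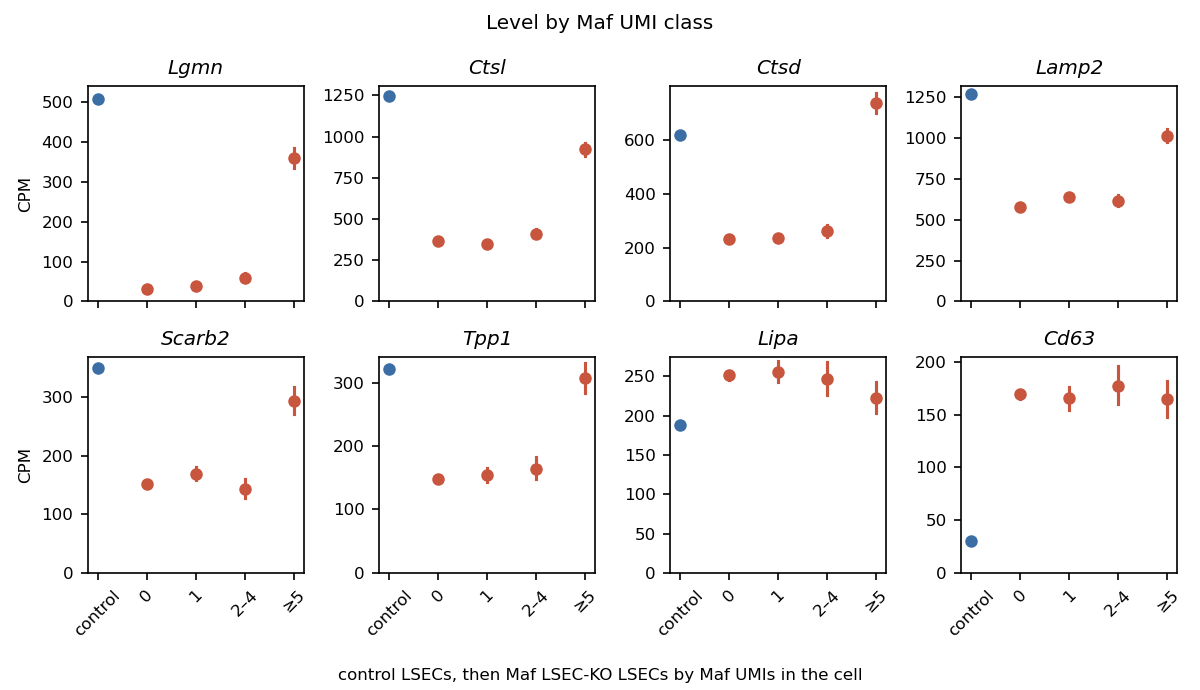
Level (CPM, y axes from 0) of 8 lysosome genes in control LSECs (blue) and in Maf LSEC-KO LSECs by the number of Maf UMIs in the cell (red). Points are summed levels of a class and bars exact 95% counting intervals. The first 6 genes are nearest to the control level with 5 or more Maf UMIs, and Cd63 lies between 164 and 177 CPM in all Maf LSEC-KO classes, above control.

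Other lists differed between the Maf classes as well. The LSEC marker sum was 5527 CPM with 0 and 13498 CPM with 5 or more Maf UMIs, the macrophage sum 97.4 and 345 CPM, and the sum of 8 stellate cell markers 29.9 and 700 CPM. The median depth of the classes was 13609 and 10164 UMIs. Macrophage-like cells expressed Maf and had more of Lgmn and Ctsd than LSECs, and the part of their RNA in the class with 5 or more Maf UMIs was not tested. In Maf LSEC-KO LSECs without a macrophage marker UMI, the share was 0.568% with 0 and 0.837% with 2 or more Maf UMIs (1001 and 121 cells).

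In control LSECs, grouped into 4 quartiles of Maf CPM, the module share was 0.844%, 0.955%, 1.04% and 1.04% from the lowest to the highest. Lgmn had 363, 466, 558 and 611 CPM in this order and Ctsl 876, 1202, 1367 and 1459 CPM. Scarb2 was level, between 344 and 358 CPM, and Cd63 was 47.5 CPM in the lowest and 22.8 CPM in the highest quartile. The lowest quartile also had the fewest UMIs per cell, with a median of 6350 against 8650 to 9557 in the others, and the highest sum of erythroid genes (3681 CPM).

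LSECs of both libraries were also clustered together without the 41 genes among the variable genes, which gave 8 clusters, each made up mostly of cells from 1 library. In cluster 1, with 1585 control and 56 Maf LSEC-KO cells, the module share was 1.11% and 1.29%. In cluster 6, with 626 and 60 cells and a low depth, it was 0.696% and 0.855%. The clusters made up mostly of Maf LSEC-KO cells had shares from 0.490% (cluster 7, 541 cells) to 0.641% (cluster 8, 93 cells). Lgmn had 642 CPM in control and 588 CPM in Maf LSEC-KO cells of cluster 1, but 30.1 to 75.2 CPM in the Maf LSEC-KO cells of clusters 2, 3, 7 and 8. Cd63 had 118 CPM in the Maf LSEC-KO cells of cluster 1 and 29.9 CPM in its control cells. In cluster 6 Lgmn had 307 CPM in control and 358 CPM in Maf LSEC-KO cells, and Cd63 26.7 and 90.5 CPM. Cluster 7 also held 61 control cells, and there the libraries differed. Lgmn had 352 CPM in its control and 37.4 CPM in its Maf LSEC-KO cells, and Cd63 10.5 and 136 CPM. The Maf LSEC-KO cells of clusters 4 and 5 (43 and 37 cells) were too few to be given.

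Along the sinusoid, from pericentral to periportal, the module share in control LSECs was 0.976%, 1.02%, 0.994% and 0.926% in 4 equal zones set by 6 pericentral and 6 periportal landmark genes, and in Maf LSEC-KO LSECs 0.607%, 0.588%, 0.589% and 0.638%. The zones of a library differed by less than the libraries did in any zone. Ctsd had a gradient, with 747, 697, 568 and 431 CPM in control and 325, 244, 232 and 244 CPM in Maf LSEC-KO. Lgmn was even, with 492 to 536 CPM in control. The periportal zone was the shallowest in both libraries, with medians of 6749 and 10120 UMIs.

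Macrophage-like cells had the highest share of lysosome UMIs, and here it was higher in Maf LSEC-KO than in control. The 222 control cells had 2.14% (2.11 to 2.16) and the 389 knockout cells 3.18% (3.16 to 3.21) (log2 ratio 0.58, 0.56 to 0.59), and the median over cells was 1.68% and 3.17%. Of the 41 members 33 were higher and 8 lower, with a median log2 ratio of 0.34, against 0.00 for all 10322 genes. At least 2-fold higher were 4 members (9.76%), against 4.26% of all genes, and 0 were 2-fold lower, against 7.77%. These were Ctsd with 1312 and 3062 CPM (1.22, 1.15 to 1.30), Lgmn with 1001 and 2069 CPM (1.05, 0.96 to 1.13), Lipa with 381 and 775 CPM (1.02, 0.89 to 1.16), and Npc1 with 57.5 and 115 CPM (1.01, 0.65 to 1.37). Ctsb, the most abundant member in these cells, had 4140 and 6820 CPM (0.72). Ctsl was the lowest, with 589 and 328 CPM (−0.84).

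Marker sums of the macrophage-like cells also differed between the libraries. The sum of the 11 macrophage markers was 18249 CPM in control and 26259 CPM in Maf LSEC-KO, and the LSEC marker sum 6394 and 2028 CPM. The LSEC marker sum was also lower in Maf LSEC-KO LSECs themselves, as given above. Its lower value here is therefore no measure of less endothelial RNA. A Pecam1 UMI was present in 43.2% of the control and 30.6% of the Maf LSEC-KO cells. Per 100 UMIs of the macrophage list lysosome genes had 117 UMIs in control cells and 121 in knockout cells (log2 ratio 0.05, 0.03 to 0.07). In the 126 control and 270 Maf LSEC-KO cells without a Pecam1 UMI, the macrophage sums were closer (24044 and 26089 CPM), and the module share was 2.41% and 3.21% (0.41, 0.39 to 0.44). In these cells Ctsd had 1553 and 3285 CPM (1.08, 0.98 to 1.18) and Npc1 61.3 and 124 CPM (1.02, 0.52 to 1.54). Lgmn with 1121 and 2125 CPM (0.92, 0.81 to 1.04) and Lipa with 392 and 734 CPM (0.91, 0.71 to 1.11) were no longer past 2-fold. Per UMI of the macrophage list all 4 members were under 2-fold, with log2 ratios of 0.70 for Ctsd, 0.52 for Lgmn, 0.50 for Lipa and 0.48 for Npc1. Ctsl had 379 and 266 CPM in control and Maf LSEC-KO cells without a Pecam1 UMI. Per 100 UMIs of the macrophage list it had 3.23 and 1.25 UMIs. The part of endothelial RNA in the higher module share was not tested beyond these values.

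The most abundant members differed between the cell types. In control LSECs Lamp2, Ctsl, Ctsb, Psap, Lamp1 and Ctsd gave 60.1% of the module's UMIs, with Lamp2 alone at 13.0%. In control macrophage-like cells Ctsb gave 19.4%, followed by Ctss, Psap, Ctsd, Ctsc and Grn. In Maf LSEC-KO LSECs Ctsl held 6.63% of the module, down from 12.8% in control, and Ctsb was first with 10.6%. A 3′ library captures 1 end per molecule, so these CPM values are not divided by gene length.

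In endothelial cells with a Vwf UMI the module share was 0.828% in 161 control and 0.592% in 1183 Maf LSEC-KO cells (log2 ratio −0.48, −0.51 to −0.46), and Lgmn was 290 and 41.4 CPM. The Vwf filter was thus uneven, with 4101 control and 3251 Maf LSEC-KO LSECs left. With these cells kept, 7 members were at least 2-fold lower and 2 higher, against 4.17% and 9.83% of all genes. In T or NK cell-like cells the module share was 0.380% and 0.378%, and in neutrophil- or monocyte-like cells 0.571% and 0.478%. B cell-like cells had 0.777% and 0.480%, and those of the control library carried an LSEC marker sum of 12464 CPM, against 902 CPM in Maf LSEC-KO.

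A list of 98 other lysosomal genes was counted in the same way, and 84 of them reached the minimum in LSECs. Of these 62 were lower and 22 higher in Maf LSEC-KO, with a median log2 ratio of −0.22. Of all genes 39.9% were lower, with a median of 0.13. At least 2-fold lower were 4 of the 84, a share near the 4.45% of all genes, and 2 of the 84 were 2-fold higher, against 10.4% of all genes. All 16 V-ATPase genes that reached the minimum were lower, with a median log2 ratio of −0.25. The intervals of Atp6v0e (−0.04), Atp6v1f (−0.04) and Atp6v1c1 (−0.10) included 0, and 2 genes were lower by 2-fold or more. These were Atp6v0a1, a membrane subunit of the pump, with 94.1 and 37.3 CPM (−1.34), and Atp6ap1, an accessory subunit, with 195 and 91.4 CPM (−1.10). Dnase2a, the acid DNase, had 21.8 and 8.26 CPM (−1.40), and Tfec, a transcription factor related to TFEB, 77.1 and 27.9 CPM (−1.47). At least 2-fold higher were Ctsk, the cathepsin best known from osteoclasts, with 4.23 and 21.5 CPM (2.34), and Creg1, a lysosomal glycoprotein, with 19.3 and 47.5 CPM (1.30). In macrophage-like cells 7 of the 91 genes that reached the minimum were at least 2-fold higher, among them Acp2 (162 and 341 CPM), against 4.26% of all genes. Only 1 of the 91, Tpcn1, was 2-fold lower, against 7.77% of all genes. Creg1 was higher in macrophage-like cells as well, with 552 and 1159 CPM. The levels of this list in macrophage-like cells were not taken per UMI of the macrophage markers. The sum of these markers was also higher in Maf LSEC-KO (18249 and 26259 CPM).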

How the data were processed

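Per the labels, the authors used Cell Ranger 6.0.2 with the mm10 genome, and the deposited values are whole UMI counts of each gene in each barcode, not normalized. Seurat 5.0.1 is also named in the submitters' processing notes. The subtraction of background from empty droplets that the methods describe was not repeated. The lysosome genes and all gene lists were chosen with earlier results of these data known.

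A barcode was kept if it held 1500 UMIs and 750 genes or more. For doublets, Scrublet (scanpy 1.11.5) was used, which marked 0 cells by itself, so the highest-scoring 225 control and 308 Maf LSEC-KO cells were removed, as many as the loading rate predicts. Clustering of each library used Seurat 5.3.0 (R 4.3.3) at a resolution of 0.3, and LSECs of both were merged with sctransform 0.4.2, without the 41 genes among the variable genes. LSECs were cells without a Vwf UMI in clusters where most cells held Pecam1 and other endothelial genes, also where erythroid, hepatocyte or stellate genes led the cluster. Other clusters were named from at least 3 fixed markers. A name ending in -like rests on these clusters.

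UMIs were summed per class and library and divided by the total without genes of mitochondria and of ribosomal proteins. Genes with a mean of 5 CPM entered the counts of 2-fold differences. Intervals (scipy 1.17.1) are exact Poisson or Clopper-Pearson. Named in full were the 10 most abundant members in LSECs and every member past 2-fold. In Poisson counts simulated for the LSEC comparison with 10166 genes, 95.6% of intervals held the true ratio. All 200 changed genes, which were set past 2-fold, were found. Counting error was the only variation in these counts. The simulation therefore checks the calculation only, and not differences between mice or members near the 2-fold limit. Alternatives covered scaling (with TMM of edgeR 4.0.16), thinning, cell filters and minima.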

Additional observations from a re-analysis of the deposited data

Results flagged for a closer look

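The module share differed in opposite directions between the libraries in the 2 cell types. Its log2 ratio of Maf LSEC-KO over control was −0.71 in LSECs and 0.58 in macrophage-like cells. Among single genes, Lgmn (−3.27 in LSECs and 1.05 in macrophage-like cells) and Ctsd (−1.24 and 1.22) were past 2-fold on opposite sides. In macrophage-like cells without a Pecam1 UMI the log2 ratio was 0.92 for Lgmn and 1.08 for Ctsd, and per UMI of the macrophage marker list 0.52 and 0.70, so Lgmn was under 2-fold in both and Ctsd in the latter. The module share was then 0.41 and 0.050. These differences between cell types were not tested, since each library is a single sample. Beside them, the macrophage marker sum of the macrophage-like cells was 18249 CPM in control and 26259 CPM in Maf LSEC-KO.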

How the results depend on the processing

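No paired analysis was possible because there is 1 library per condition. The sign of the module share's log2 ratio was kept in LSECs, macrophage-like cells and Maf classes under every alternative run. In LSECs (−0.71) it was −0.90 over the UMIs of all genes, −0.61 as a mean over cells, −0.64 thinned, −0.72 with at least 3000 UMIs, −0.70 without LSECs that hold a macrophage marker UMI, −0.67 without Lamp2 and −0.78 with only Maf LSEC-KO LSECs of 0 Maf UMIs. In macrophage-like cells (0.58) it was 0.55 over all UMIs, 0.54 as a mean over cells, 0.36 with doublets kept and 0.61 with at most 10% mitochondrial UMIs. For 2 or more against 0 Maf UMIs (0.48) it was 0.54, 0.60 and 0.78 over all UMIs, over cells and thinned, 0.46 with doublets kept, 0.42 with Vwf cells kept and 0.56 without LSECs with a macrophage marker UMI. The remaining alternatives were chosen after seeing the data. Leaving out clusters 5 and 6 gave −0.79 in LSECs and 0.47 for the Maf classes. Leaving out the 5 LSEC clusters with more erythroid or stellate than endothelial markers gave −0.82 and 0.66. A limit of 5 Maf UMIs gave 0.77. Macrophage-like cells gave 0.41 without a Pecam1 UMI and 0.050 per macrophage marker UMI.

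The count of 8 lower genes became 4 of 41 as a mean over cells and 5 of 41 thinned. Of all genes, 3.985% and 4.002% were 2-fold lower there. The count of 4 higher genes became 1 of 39 over all UMIs and 1 of 32 with a minimum of 20 CPM. Against this, 7.498% and 7.624% of all genes were 2-fold higher. The count became 2 by the median of ratios, by TMM and with Vwf cells kept. It was also 2 without LSECs with a macrophage marker UMI and with 0 Maf UMIs only. In the settings with a count of 2, between 7.948% and 10.803% of all genes were 2-fold higher. Lgmn, Ctsl, Ctsd and Cd63 stayed past 2-fold under all 15 alternatives with a ratio of their own. Precision is limited by the single pool per condition, which counting intervals do not cover, and by depth for members under 10 CPM.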
